A study of Rattus norvegicus with 16 samples.

Results

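The comparison described here set the left ventricle (LV) in the heart failure (HF) phase of volume overload against the LV in the compensated hypertrophy (CH) phase, with no control arrays in the test. All rats were adult male Sprague-Dawley rats, and both groups carried an aortocaval fistula (ACF), a surgical shunt between the aorta and the vena cava. The 4 arrays labelled 8 weeks after ACF stood for the CH phase and the 4 labelled 16 weeks for the HF phase, by the times given in the study's methods. These are 8 of the 16 arrays of the series, and the 4 control arrays, which the labels call baseline, and the 4 arrays at 24 weeks are used only to place the levels. The descriptions of the 24-week arrays differ from each other in the week they name. No rats without ACF at 8 and 16 weeks were analysed here, so weeks of overload and the age of the rats cannot be told apart. The labels count 4 ventricles per group and the design text speaks of biological replication 3 times, so p values measure the spread between these arrays.

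Volume overload raises the filling of the ventricle in every beat. The wall adapts by lengthening its myocytes and by remodelling its matrix, and after a compensated period the chamber dilates and contraction fails. Failing ventricles are known for re-expression of fetal muscle and natriuretic peptide genes, for matrix proteins secreted by activated fibroblasts, for macrophages that clear and remodel tissue, and for a lower capacity to burn fatty acids in mitochondria. The study asked how energy metabolism shifts between the phases, and the transition itself is what the direct comparison measures.

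A level below is the log2 intensity of a gene's probe set minus the median of its array, so that a value of 0 is the middle of the array and negative levels are dim probe sets. Levels of different genes come from different probes and are not set against each other. A difference is the mean level at 16 weeks minus that at 8 weeks, on the log2 scale. The label of the tissue was checked for heart muscle with 21 measured markers of ventricular cardiomyocytes. Their mean level ran from 7.27 to 7.39 in the arrays at 8 weeks and from 7.03 to 7.36 at 16 weeks. These levels do not tell ventricle from atrium, and the atrial marker Myl7 reached 6.91 in an array at 8 weeks. Since each sample is a piece of whole ventricle, fewer cells of a type and less RNA per cell cannot be told apart in any value below.

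The medians of the deposited arrays lay at 2 levels, and these cut across both groups. The higher level, with medians of 6.125 to 6.15, held replicates 1, 3 and 4 at 8 weeks and replicates 1 and 2 at 16 weeks. The lower level, with medians of 5.921 to 5.931, held replicate 2 at 8 weeks and replicates 3 and 4 at 16 weeks. Each array was centred on its median before any test. Differences within each array level are given for some genes only. They set 3 CH arrays against 2 HF arrays at the higher level and 1 against 2 at the lower one. Genes given without them can also differ between the levels. Within the higher and the lower level the difference was 2.02 and 0.30 for Paqr8, -1.07 and -0.18 for Scn4b and -1.19 and -0.18 for Pgam2. It was -1.03 and -0.05 for Acsl6, 0.72 and -0.01 for Ucp2 and 0.82 and -0.02 for Slc2a1. In Spp1 (2.58 and 3.07) and Pilra (0.88 and 2.92) it was larger within the lower level. The median difference over all 14218 genes was 0.0068 after centring and -0.054 without it.

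No single gene passed the test between the HF and the CH phase. Of 14218 genes, 0 (0%) reached an adjusted p under 0.05 in limma, in either direction, and the lowest adjusted p was 0.0936. By the study's own threshold, a fold change above 1.5 with an unadjusted p under 0.05, 153 genes (1.08%) were higher at 16 weeks and 58 (0.408%) were lower, 211 (1.48%) in all. With arrays left uncentred the split was 103 higher and 90 lower. At an unadjusted p under 0.05 alone there were 1108 genes (7.79%). The methods' unpaired test adjusted in the same way also called 0 genes. The 4 arrays at 16 weeks lay entirely above those at 8 weeks in 385 genes (2.71%) and entirely below in 207 (1.46%), 592 genes (4.16%) together. The values that follow are therefore differences that did not pass, described with their spread.

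**Figure D1:**
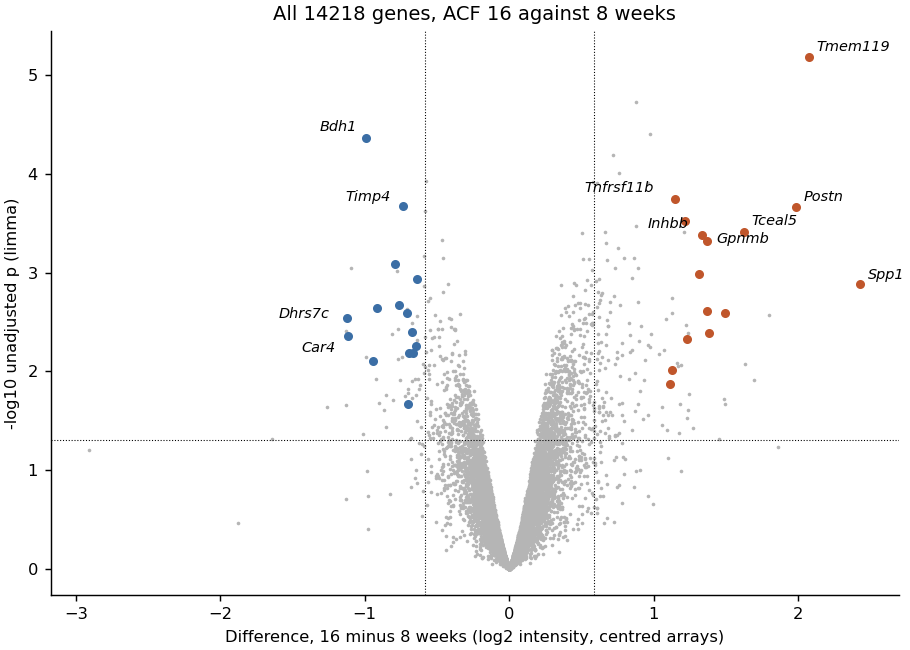
Difference between 16 and 8 weeks (horizontal axis, log2) against −log10 of limma's unadjusted p (vertical axis) for each of 14218 genes. Coloured points are the 15 genes named as higher (orange) and the 15 named as lower (blue), and dotted lines mark a fold change of 1.5 and a p of 0.05. Tmem119 has the smallest p, and genes past both lines are more often on the right, 153 against 58.

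The 211 genes past the study's threshold were not equally far apart in the 4 HF arrays. Over the 153 higher genes, the median difference from the 8-week mean was 1.16 in replicate 1 at 16 weeks, 0.93 in replicate 2, 0.62 in replicate 3 and 0.47 in replicate 4. Over the 58 lower genes it was -1.07, -0.93, -0.52 and -0.38 in the same order. Replicates 1 and 2 are the arrays at the higher array level and replicates 3 and 4 those at the lower one. The part of the array level in this order was not tested. The genes were chosen by this contrast, so these medians describe the arrays and support nothing.

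Among the 79 genes past that threshold whose arrays did not overlap, 58 were higher and 21 lower at 16 weeks. The 15 with the largest difference in each direction are named, which leaves out 4 genes known by an identifier alone. Their choice fixes that the groups do not overlap, and the exact permutation test of 4 against 4 arrays gives each of them the smallest p it can, 0.0286.

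Spp1, Tmem119 and Postn had the largest differences on the higher side. Spp1 encodes osteopontin, a secreted phosphoprotein made by macrophages and stressed muscle that binds integrins. Its levels were 1.93, -0.02, 1.00 and 1.73 at 8 weeks and 4.93, 3.33, 2.18 and 3.92 at 16 weeks. The groups came close in replicate 1 at 8 weeks and replicate 3 at 16 weeks. The difference was 2.43 (SE 0.56, 5.4-fold, adjusted p = 0.382 by limma). Postn encodes periostin, a matricellular protein of activated fibroblasts. Its levels were 2.12, 2.17, 2.79 and 2.75 at 8 weeks and 5.17, 5.17, 3.81 and 3.63 at 16 weeks. All HF arrays were above all CH arrays, with replicates 1 and 2 well above replicates 3 and 4. The difference was 1.99 (SE 0.36, 3.96-fold, adjusted p = 0.237 by limma), and it was 2.23 where array level was a block (adjusted p = 0.0272). With that block in a fit of all 16 arrays, chosen after seeing the data, it did not pass (adjusted p = 0.106).

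The promoters of these 2 genes are shown because both encode secreted matrix proteins and stood among the 3 largest differences on the higher side. RefSeq gives the 250 bases before each start on the rat assembly GRCr8, at chr2:140677811-140678060 on the plus strand for Postn and chr14:5619805-5620054 on the minus strand for Spp1, printed in the direction of transcription. Short motifs of 3 kinds were searched on both strands, an AP-1 site (TGANTCA), a Runx core (TGTGGT) and a TATA box (TATAAA), and capitals mark the matches.
Postn: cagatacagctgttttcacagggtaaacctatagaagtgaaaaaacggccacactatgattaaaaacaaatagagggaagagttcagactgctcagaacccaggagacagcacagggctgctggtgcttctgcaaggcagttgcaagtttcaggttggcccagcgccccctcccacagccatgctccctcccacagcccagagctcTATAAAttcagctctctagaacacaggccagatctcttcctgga
Spp1: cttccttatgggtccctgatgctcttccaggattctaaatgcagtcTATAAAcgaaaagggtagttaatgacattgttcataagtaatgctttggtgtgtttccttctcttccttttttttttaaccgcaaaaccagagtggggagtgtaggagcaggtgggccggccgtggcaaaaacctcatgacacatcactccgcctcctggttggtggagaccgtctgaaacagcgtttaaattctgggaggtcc
The TATAAA match begins 44 bases before the start in Postn and 204 bases before it in Spp1. Of 33469 promoter windows of the reference table, 12.9% hold this motif, 6.34% the AP-1 letters and 14.5% the Runx letters. Neither window here holds the last 2 as spelled above. Other spellings of these sites, such as TGCGGT for Runx, were not searched, so the windows are not shown to lack them.

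Tmem119 had the lowest p of all genes. It encodes a transmembrane protein known as a marker of microglia and as a regulator of osteoblasts. Its levels were 0.36, 0.32, -0.45 and -0.21 at 8 weeks and 2.53, 1.42, 2.14 and 2.24 at 16 weeks. No array came near the other group, and the differences within the higher and the lower array level were 2.07 and 1.87. The difference was 2.07 (SE 0.25, 4.21-fold, adjusted p = 0.0936 by limma). It passed where the arrays were not centred (adjusted p = 0.0249) and where replicate 2 at 16 weeks was left out (adjusted p = 0.015).

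Other named genes on the higher side fall into a few kinds of protein. Inhbb encodes the beta B subunit of activins and inhibin B, ligands of the TGF-beta family. Its levels were 1.18, 0.89, 1.40 and 1.46 at 8 weeks and 2.79, 2.66, 3.12 and 1.71 at 16 weeks, where replicate 4 stood closest to the CH arrays. The difference was 1.34 (SE 0.26, adjusted p = 0.285 by limma), and without that replicate it was 1.62 (adjusted p = 0.0428). Fstl3, a secreted protein that binds and blocks activins, had levels of 2.20, 2.19, 2.17 and 1.88 at 8 weeks and 4.18, 3.84, 2.56 and 2.38 at 16 weeks. Its difference of 1.13 (SE 0.36, adjusted p = 0.486) was 1.93 within the higher array level and 0.28 within the lower one, and its other probe set gave 0.81. Gpnmb, a glycoprotein of lipid-laden macrophages, had a difference of 1.37 (SE 0.27, adjusted p = 0.295), from levels of 2.18 to 2.67 up to 3.08 to 4.62. Pilra, an inhibitory receptor of myeloid cells, differed by 1.49 (SE 0.38), and its CH levels spanned -0.50 to 1.74 against 1.90 to 2.63. Chi3l1, a secreted chitinase-like protein, differed by 1.37 (SE 0.34), with 2.05 within the higher array level and 0.58 within the lower one.

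The remaining higher genes were Tnfrsf11b, Sema5a, Crtac1, Cpeb1, Paqr8, Myot and Tceal5. Tnfrsf11b encodes osteoprotegerin, a decoy receptor for RANKL, and its levels were -0.72, 0.00, -0.08 and -0.42 at 8 weeks and 0.91, 0.34, 0.90 and 1.21 at 16 weeks. Its difference of 1.15 (SE 0.20, adjusted p = 0.236 by limma) was 1.03 and 1.06 within the higher and the lower array level. Myot, which encodes the Z-disc protein myotilin, differed by 1.11 (SE 0.37), and its HF levels of 3.36, 2.11, 1.45 and 1.30 spread more than its CH levels of 0.71 to 1.18. Without replicate 1 at 16 weeks it differed by 0.68. Sema5a, a semaphorin, showed the same layout with HF levels of 3.59, 2.29, 1.53 and 1.55 and CH levels of 0.75 to 0.91. The other probe sets of Sema5a, 3 in number, gave differences from -0.15 to 1.09 against 1.39 for the one used. Tceal5 differed by 1.62 (SE 0.32) and Cpeb1, which binds messenger RNA, by 1.32 (SE 0.29). Paqr8, a membrane progestin receptor, differed by 1.23 (SE 0.34) and Crtac1, a secreted cartilage protein, by 1.22 (SE 0.23). The other 3 probe sets of Paqr8 gave from -0.18 to 1.12, and the other 2 of Crtac1 gave 0.17 and 0.80. Crtac1 was dim, with mean levels of -1.61 at 8 weeks and -0.39 at 16 weeks.

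Of the 15 named lower genes, Dhrs7c and Car4 had the largest differences and Bdh1 and Timp4 the lowest p. Dhrs7c encodes a dehydrogenase of the sarcoplasmic reticulum of striated muscle. Its levels were 4.92, 4.73, 4.89 and 5.15 at 8 weeks and 2.90, 3.56, 4.39 and 4.35 at 16 weeks. The 2 HF arrays at the higher array level were the lowest, and the difference was -1.12 (SE 0.29, adjusted p = 0.406), with -1.75 within the higher level and -0.36 within the lower one. Bdh1 encodes the mitochondrial enzyme that oxidises beta-hydroxybutyrate. Its levels were 3.36, 3.22, 3.51 and 3.11 at 8 weeks and 1.94, 2.25, 2.54 and 2.51 at 16 weeks, with no overlap. The difference was -0.99 (SE 0.15, adjusted p = 0.154 by limma), 1.99-fold lower, and its other probe set gave -0.66. Timp4, an inhibitor of matrix metalloproteinases found mainly in heart, had levels of 2.58, 2.17, 2.27 and 2.43 at 8 weeks and 1.68, 1.68, 1.31 and 1.83 at 16 weeks. Its difference of -0.74 (SE 0.13, adjusted p = 0.237) was -0.74 and -0.60 within the higher and the lower array level.

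Car4, a carbonic anhydrase anchored to the cell surface, differed by -1.12 (SE 0.31), and its other probe set gave -0.06. Rpl3l encodes a ribosomal protein of striated muscle, and its levels were 5.32, 5.29, 5.47 and 5.48 at 8 weeks and 3.74, 4.86, 4.96 and 5.18 at 16 weeks. Replicate 1 at 16 weeks stood apart, and without it the difference of -0.70 became -0.39. Scn4b, an auxiliary subunit of voltage-gated sodium channels, had levels of 4.45 to 4.74 at 8 weeks and 3.51, 3.67, 4.14 and 4.42 at 16 weeks. Coq8a, a protein of coenzyme Q synthesis, had tight CH levels of 4.54 to 4.61 and HF levels of 3.35, 3.97, 3.97 and 4.42. Adra1d, an alpha-1 adrenergic receptor, differed by -0.69 (SE 0.20), Vipr1, a receptor for vasoactive intestinal peptide, by -0.71 (SE 0.18) and Bmper, a secreted regulator of BMP signalling, by -0.79 (SE 0.17). These probe sets lay near or below the middle of the array. Their mean levels at 8 and 16 weeks were -0.34 and -1.03 for Adra1d, 0.13 and -0.58 for Vipr1 and 0.42 and -0.37 for Bmper. The other probe set of Vipr1 gave -0.08. Nrep, Pwwp3b, Mid1ip1, Sh3rf3 and Tdrd1 differed by -0.95, -0.92, -0.76, -0.66 and -0.64. Pwwp3b was also dim, with mean levels of 0.12 at 8 weeks and -0.80 at 16 weeks. Over the 15 lower genes, leaving out any 1 array gave differences from -1.32 to -0.39. The groups do not overlap in these genes by choice, so their sign could not change.

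**Figure D2:**
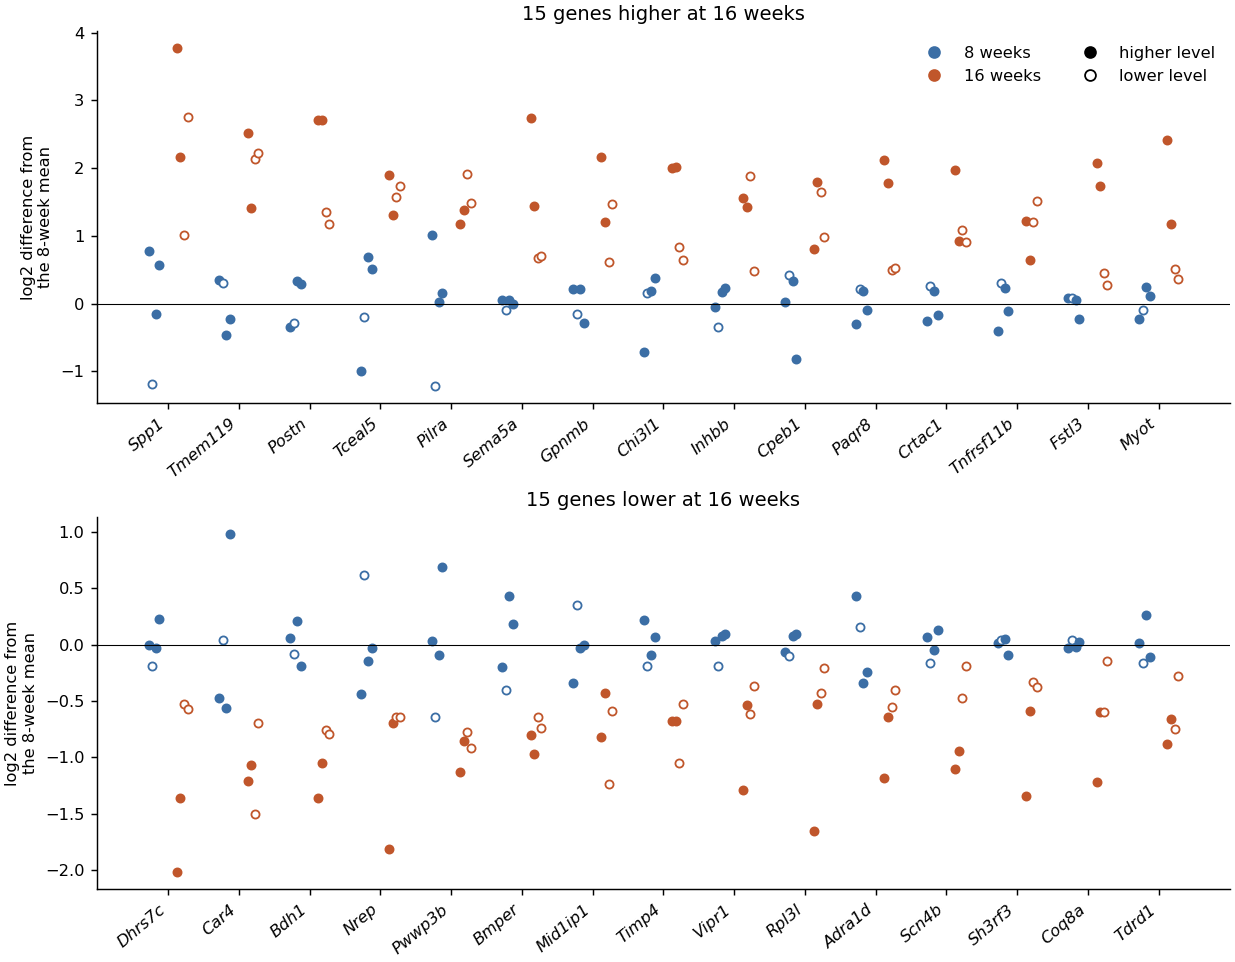
Level of each named gene in each of the 8 arrays, as the log2 difference from the mean of the 4 arrays at 8 weeks (vertical axis), for the 15 higher genes (top) and the 15 lower genes (bottom) ordered by difference. Blue is 8 weeks and orange 16 weeks, and filled and open points are arrays at the higher and the lower array level. Postn, Fstl3 and Dhrs7c show the 2 filled HF arrays farthest from 0, whereas Tmem119 and Tnfrsf11b do not.

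The matrix genes were examined by role. Counts past the threshold, in this list and those below, stand beside 1.08% of all genes higher and 0.408% lower. With centred arrays the median difference over all genes was 0.0068, so about as many genes lay above 0 as below it. Of 24 measured matricellular proteins and proteoglycans, 9 were higher past the study's threshold and none lower, 19 had a difference above 0, and the median difference was 0.31 against 0.0068 over all genes. No member reached an adjusted p under 0.05. Besides Postn and Spp1, they included Tnc, Vcan and Ccn5. Tnc encodes tenascin C, a matrix protein of injured tissue, and its levels were -1.91, -1.80, -1.46 and -2.15 at 8 weeks and 1.17, 0.42, -1.74 and -0.64 at 16 weeks. Replicate 3 at 16 weeks lay inside the CH range, and the difference was 1.63 (SE 0.50, adjusted p = 0.466). Vcan, the large proteoglycan versican, differed by 0.91 (SE 0.24), and its other 4 probe sets gave from -0.05 to 0.93. Ccn5, a member of the CCN family, differed by 1.19 (SE 0.37). The median of the list was 0.51 within the higher array level. By array it was 0.30, 0.64, 0.20 and 0.09 in replicates 1 to 4 at 16 weeks, against -0.09 to 0.12 in the CH arrays. Replicate 4 at 16 weeks thus lay inside the range of the CH arrays.

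Elastic fibres give the wall its recoil, and their genes had been the subject of the series' own title. Of 22 measured, 3 were higher past the study's threshold, none was lower, and the median difference was 0.28. Emilin1, a glycoprotein at the surface of elastic fibres, had levels of 1.16, 1.69, 1.57 and 1.65 at 8 weeks and 2.27, 2.63, 2.07 and 2.03 at 16 weeks, a difference of 0.73 (SE 0.16, adjusted p = 0.358). Loxl1, a cross-linking enzyme of elastin, had levels of 3.50, 3.27, 3.63 and 3.64 against 4.13, 4.39, 3.87 and 3.86, a difference of 0.55 (SE 0.14). Neither gene overlapped between the groups. Mmp12, the elastase of macrophages, had CH levels of -1.46 to -1.09 and HF levels of 0.50, 0.58, -1.35 and -0.14, so that 1 of the HF arrays lay inside the CH range. Efemp1 and Ltbp2, a fibulin and a binding protein of fibrillin, differed by 0.41 (SE 0.12) and 0.56 (SE 0.19).

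Fibrillar collagens themselves were less far from 0. Of 29 measured genes of collagen and its processing, 3 were higher past the threshold, and the median difference was 0.07. By array the median over the list was 0.34 in replicate 2 at 16 weeks and between -0.09 and -0.02 in the other 3 HF arrays. Col12a1, a collagen on the surface of fibrils, differed by 0.96 (SE 0.27), although its other probe sets gave -0.08 and 0.04, Col8a1, a short-chain collagen, by 0.68 (SE 0.18) and Lox, the lysyl oxidase, by 0.71 (SE 0.28), or 0.44 without replicate 1 at 16 weeks. Of 15 basement membrane genes none passed the threshold, and the median was -0.10. Col4a5, a chain of basement membrane collagen, differed by -0.48 (SE 0.14) and Lama5, a laminin chain, by 0.48 (SE 0.16), both without overlap, and the other 2 probe sets of Lama5 gave 0.05 and 0.11. Among 26 proteases and inhibitors, 2 were higher and 1, Timp4, lower. Timp2, another inhibitor, had levels of 5.10 to 5.20 at 8 weeks and 5.27 to 5.65 at 16 weeks, a difference of 0.31 (SE 0.10). Timp1, named after its values were seen, had CH levels of 2.07 to 2.98 and HF levels of 5.42, 4.80, 2.61 and 3.10, a difference of 1.49 (SE 0.54).

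TGF-beta ligands and activins drive matrix production through Smad proteins, and follistatins and inhibitory Smads restrain them. Of 27 measured genes of this signalling, 4 were higher past the threshold and none lower, 22 had a difference above 0, and the median was 0.12. The ligand genes were Inhbb, described above, Tgfb2, with a difference of 0.76 (SE 0.25), and Inhba, the activin beta A subunit, with 0.89 (SE 0.33). Inhba differed by 0.52 without replicate 2 at 16 weeks, and its other probe set gave 0.27. Tgfb2 levels were 1.93, 1.58, 1.55 and 0.99 at 8 weeks and 2.78, 2.12, 2.53 and 1.68 at 16 weeks, and replicate 4 at 16 weeks overlapped the CH range. The other probe set of Tgfb2 gave 1.38. Of the antagonists, Fstl3 is given above and Smad6, an inhibitory Smad, differed by 0.45 (SE 0.12) without overlap, although its other 3 probe sets gave from -0.06 to 0.07.

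Macrophage markers had the highest median of the 48 lists examined. Of 19 measured, 6 were higher past the study's threshold and none lower, 18 had a difference above 0, and the median difference was 0.51. Lyz2, the lysozyme of myeloid cells, had levels of 5.86, 5.41, 5.96 and 5.60 at 8 weeks and 6.76, 6.31, 5.91 and 6.30 at 16 weeks, a difference of 0.61 (SE 0.18, adjusted p = 0.453). Csf1r, the receptor for macrophage growth factor, had levels of 2.54 to 2.70 at 8 weeks and 3.04, 3.21, 2.75 and 2.99 at 16 weeks, a difference of 0.35 (SE 0.11). Cd163 and Mrc1, scavenger receptors of resident macrophages, differed by 0.66 (SE 0.24) and 0.51 (SE 0.19), and Ccl7, a monocyte chemokine, by 0.93 (SE 0.37). Cd163 and Mrc1 differed by 0.42 and 0.30 without replicate 1 at 16 weeks, and Ccl7 by 0.60 without replicate 2 at 8 weeks. The median over the list was not even across HF arrays, with 0.95, 0.54, 0.06 and 0.24 in replicates 1 to 4, while the CH arrays ran from -0.19 to 0.21. Replicate 3 at 16 weeks thus lay inside the range of the CH arrays. Markers of neutrophils and mast cells (11 measured) and of T, B and NK cells (14 measured) had medians of -0.11 and -0.12, and none passed the threshold.

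Genes of MHC class II, which present antigen to helper T cells, lay on the other side of 0. Of 11 measured, 2 were lower past the threshold, 8 had a difference below 0, and the median was -0.34. Of the genes described here only RT1-Ba was past the threshold. The lowest difference of the list was -1.645, in a gene not described. Cd74, the invariant chain, had levels of 5.97, 5.66, 5.98 and 5.91 at 8 weeks and 4.89, 5.37, 5.40 and 5.69 at 16 weeks, a difference of -0.54 (SE 0.16, adjusted p = 0.453). RT1-Db1, a class II beta chain, differed by -0.50 (SE 0.17) without overlap, RT1-Ba by -0.65 (SE 0.21) and RT1-Da by -0.45 (SE 0.19). These genes belong to a family of near-identical members, and their probe sets may share signal, as the other 3 probe sets of RT1-Ba gave from -0.17 to 0.14 and the other one of RT1-Db1 gave -0.81. RT1-Da differed by -0.29 without replicate 3 at 8 weeks. Ctss, the protease that trims the invariant chain and is abundant in macrophages, had a difference of 0.30 (SE 0.13), or 0.18 without replicate 1 at 16 weeks. Of 21 interferon-stimulated genes none passed the threshold, 19 had a difference below 0, and the median was -0.21. It was -0.09 within the higher array level and -0.07 without replicate 2 at 8 weeks, with 14 of 21 below 0 in each. The CH arrays of that list spread from -0.24 to 0.26, a range that held 2 of the 4 HF arrays.

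**Figure D3:**
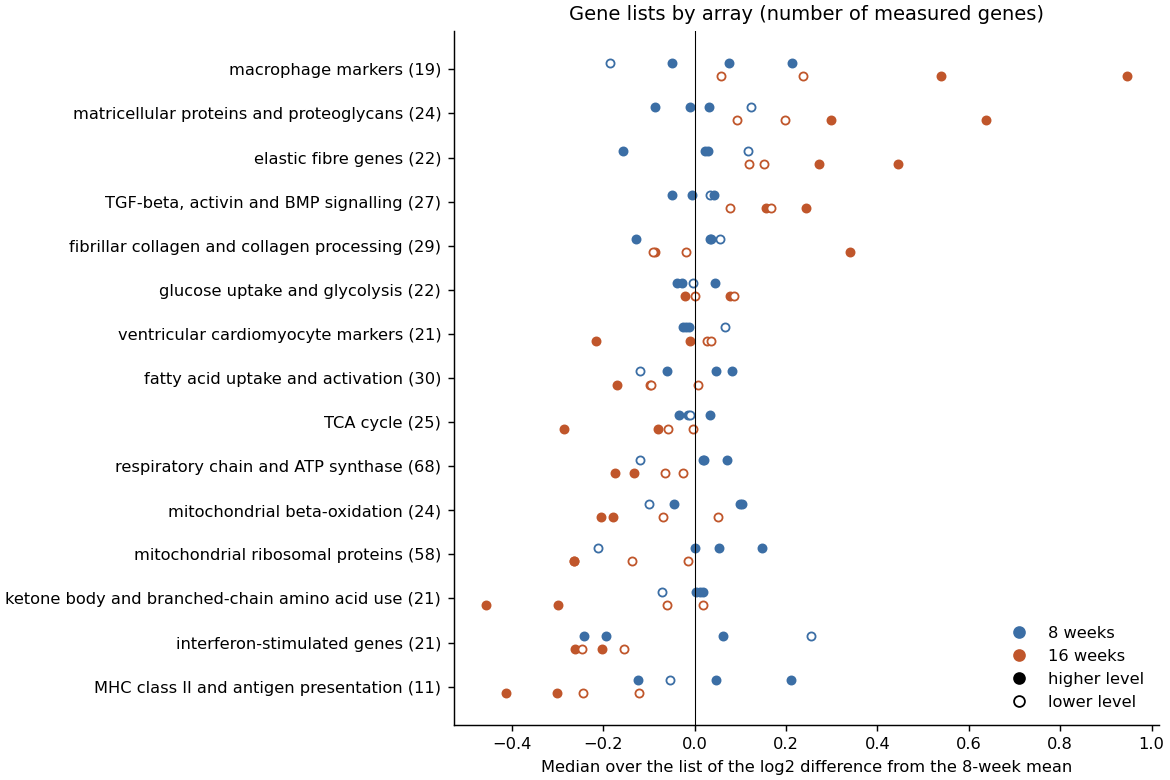
Median over each list of the log2 difference from the 8-week mean (horizontal axis) in each of the 8 arrays, for 15 lists with the number of measured genes in brackets. Blue is 8 weeks and orange 16 weeks, and filled and open points are arrays at the higher and the lower array level. Macrophage markers run up to 0.95 in an HF array, and in the ketone body list the 2 filled HF arrays lie at -0.46 and -0.30 with the open ones near 0.

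The study centred on energy metabolism, and these genes are given by pathway. Of the 20 measured genes that the study names for its microarray, 19 had a difference below 0, 2 were lower past the threshold, and the median was -0.24. The study chose that list on these samples, with comparisons to control and between the phases, so it is no independent evidence of direction. By array its median was -0.75, -0.30, -0.23 and -0.03 in replicates 1 to 4 at 16 weeks. Within the higher array level the median difference was -0.48.

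Of 22 genes of glucose uptake and glycolysis, 2 were higher and 1 lower past the threshold, and the median was 0.03, or -0.03 with arrays not centred. Pfkp, the platelet form of phosphofructokinase, had levels of 2.21, 2.09, 2.54 and 2.19 at 8 weeks and 3.62, 3.25, 2.83 and 2.45 at 16 weeks, a difference of 0.78 (SE 0.22). Eno2, the neuronal enolase, differed by 1.07 (SE 0.31). Pgam2, the muscle form of phosphoglycerate mutase, had CH levels of 6.47 to 6.67 and HF levels of 5.18, 5.66, 6.20 and 6.51, a difference of -0.70 (SE 0.24). Forms typical of muscle and of other cells thus stood on different sides of 0 in these 3 genes. Slc2a1, the basal glucose transporter GLUT1, differed by 0.46 (SE 0.17), and Slc2a4, the insulin-dependent transporter GLUT4, by -0.53 (SE 0.23). Pfkm, the muscle phosphofructokinase, differed by -0.42 (SE 0.19). Without replicate 1 at 16 weeks the differences of Slc2a4, Pfkm and Pgam2 were -0.26, -0.21 and -0.46. The other probe set of Slc2a4 gave -0.22, and the other 2 of Pfkm from -0.56 to 0.00. Among 19 regulators of glycolysis and pyruvate dehydrogenase, 2 were lower past the threshold. Pdp2, the phosphatase that activates pyruvate dehydrogenase, differed by -0.74 (SE 0.22) and Pfkfb2, a heart form of the enzyme that makes the activator of phosphofructokinase, by -0.63 (SE 0.22). The other 3 probe sets of Pfkfb2 gave from -0.27 to -0.03. Slc16a3 and Slc16a1, carriers of lactate and pyruvate, differed by 0.36 (SE 0.09) and 0.33 (SE 0.13), both without overlap, and the other probe set of Slc16a1 gave -0.12. Of 11 genes of the hexosamine pathway none passed the threshold, and the median was 0.03, also -0.03 with arrays not centred.

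Of 24 genes of mitochondrial beta-oxidation, 20 had a difference below 0, 1 was lower past the threshold, and the median was -0.15. By array the list's median was -0.20, -0.18, -0.07 and 0.05 in replicates 1 to 4 at 16 weeks. The CH arrays ran from -0.10 to 0.10, a range that held replicates 3 and 4 at 16 weeks. Hadh, the hydroxyacyl-CoA dehydrogenase of short chains, had levels of 6.13, 5.76, 5.94 and 6.09 at 8 weeks and 4.85, 5.33, 5.68 and 5.72 at 16 weeks, a difference of -0.59 (SE 0.18, adjusted p = 0.477). All 4 HF arrays were lower, and the difference was -0.96 within the higher array level and -0.06 within the lower one. Acaa2, the thiolase of the last step, differed by -0.40 (SE 0.17) and Eci2, an isomerase for unsaturated chains, by -0.27 (SE 0.11). Of 30 genes of fatty acid uptake and activation, Acsl6, an acyl-CoA synthetase, was lower and Ucp2, a mitochondrial carrier, higher past the threshold, with differences of -0.64 (SE 0.18) and 0.59 (SE 0.21), and the median was -0.10. The other probe set of Acsl6 gave -0.15. Cpt1a, the liver form of the carnitine transferase that admits fatty acids to mitochondria, differed by 0.28 (SE 0.10). In the storage list of 26 genes, Angptl4, a secreted inhibitor of lipoprotein lipase, had CH levels of -0.63 to 0.23 and HF levels of 2.90, 1.38, 0.15 and 1.57, a difference of 1.80 (SE 0.46), and Hilpda, a lipid droplet protein, differed by 0.57 (SE 0.17). Dgat1 and Dgat2, the last enzymes of triglyceride synthesis, differed by -0.37 (SE 0.13) and -0.54 (SE 0.22), and Dgat2 by -0.35 without replicate 2 at 16 weeks.

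Of 21 genes for ketone bodies and branched-chain amino acids, 17 had a difference below 0, and the median was -0.18. Bdh1 was the 1 past the threshold. Bckdhb, a subunit of the branched-chain ketoacid dehydrogenase, had levels of 5.59, 5.26, 5.39 and 5.21 at 8 weeks and 4.62, 4.91, 5.01 and 5.16 at 16 weeks, a difference of -0.44 (SE 0.13). The list's median by array was -0.46 and -0.30 in the HF arrays at the higher array level and -0.06 and 0.02 in those at the lower one. Genes of the respiratory chain and ATP synthase had small differences of 1 sign, with 65 of 68 below 0, a median of -0.11 and none past the threshold. Ndufs3, a subunit of complex I, was the farthest by p, at -0.35 (SE 0.12). Of 58 mitochondrial ribosomal proteins 51 had a difference below 0 and the median was -0.16, and Mrps24 differed by -0.37 (SE 0.12), with -0.06 in its other probe set. The 8-week arrays of these 2 lists already spread from -0.12 to 0.07 and from -0.21 to 0.15. Of 25 genes of the TCA cycle 21 had a difference below 0, none passed the threshold, and the median was -0.11. By array that median was -0.29, -0.08, 0.00 and -0.06 in replicates 1 to 4 at 16 weeks, against -0.03 to 0.03 in the CH arrays. Me2, a mitochondrial malic enzyme, differed by 0.58 (SE 0.13), and its other probe set gave 0.09. Of 24 regulators none passed, among them Ppargc1a, the coactivator of mitochondrial genes, with levels of 3.21 to 3.45 at 8 weeks and 2.77 to 3.15 at 16 weeks, a difference of -0.32 (SE 0.11), and Ppard, a lipid-sensing receptor, with -0.29 (SE 0.12), or -0.03 in its other probe set and -0.18 without replicate 2 at 8 weeks. Of 42 cytosolic ribosomal proteins 41 had a difference above 0 and the median was 0.08, but 29 were above 0 with a median of 0.02 where arrays were not centred, and 31 with a median of 0.04 without replicate 1 at 16 weeks. Rpl3, the widely used paralogue of Rpl3l, differed by 0.45 (SE 0.17), or 0.29 without that array and 0.26 in its other probe set.

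Adrenergic drive in failing hearts is damped by kinases that uncouple its receptors. Grk5 encodes such a kinase, and its levels were 1.60, 1.23, 1.55 and 1.67 at 8 weeks and 2.69, 2.67, 2.14 and 2.06 at 16 weeks. The groups did not overlap, and the difference was 0.88 (SE 0.17, adjusted p = 0.283 by limma). It was 1.00 where array level was a block (adjusted p = 0.016), and with that block in a fit of all 16 arrays it did not pass (adjusted p = 0.0636). Of the 30 measured genes of adrenergic and cyclic AMP signalling, 1 was higher and 1 lower past the threshold, Grk5 and Adra1d. Of all genes, 1.08% were higher and 0.408% lower. Adra1b, an alpha-1 receptor of myocytes, differed by -0.55 (SE 0.17) and Prkaca, the catalytic subunit of protein kinase A, by -0.28 (SE 0.12), both without overlap. Of 32 channel and connexin genes, 2 were lower, Scn4b and Kcna5. Kcna5, a potassium channel typical of atrium, had CH levels of 1.73, 2.16, -0.01 and 0.95 and HF levels of -0.21, -0.29, 1.03 and -0.74. Of 29 calcium handling genes, Cacna1h, a T-type calcium channel of the fetal heart, was higher by 1.17 (SE 0.36), from levels of -0.56 to 0.05 up to 1.80, 1.53, -0.20 and 0.92. Its other probe set gave -0.14. Slc8a1, the sodium-calcium exchanger, differed by 0.21 (SE 0.09) without overlap.

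Of 21 genes of the fetal programme and natriuretic peptides, 3 were higher past the threshold, and the median was 0.09. Fhl1, a stretch-responsive protein of the sarcomere, had levels of 5.98, 5.98, 5.85 and 5.95 at 8 weeks and 6.93, 7.11, 6.30 and 6.07 at 16 weeks, a difference of 0.66 (SE 0.21), against -0.02 and 0.94 in its other 2 probe sets. Ankrd2, an ankyrin repeat protein of stretched muscle, differed by 1.06 (SE 0.40), or 0.68 without replicate 2 at 16 weeks. Nppa, the precursor of atrial natriuretic peptide, had levels of 7.16, 7.70, 7.66 and 6.05 at 8 weeks and 8.26, 7.66, 7.84 and 7.74 at 16 weeks, and the difference of 0.73 (SE 0.32, adjusted p = 0.625) was 0.37 without replicate 4 at 8 weeks. Of 33 sarcomere and Z-disc genes, Myot was the 1 past the threshold, beside 1.08% of all genes higher, and the median was 0.01. The 21 ventricular cardiomyocyte markers had a median difference of -0.04 and none passed, and with arrays not centred the median was -0.10. Myh6, the adult fast myosin, had levels of 7.95, 8.13, 7.84 and 8.16 at 8 weeks and 6.71, 7.90, 7.73 and 8.04 at 16 weeks, so that 1 HF array stood apart, and its other probe set gave a difference of -1.32. Ckm, the muscle creatine kinase, had levels of 7.15 to 7.47 at 8 weeks and 6.13, 6.87, 7.38 and 7.37 at 16 weeks. Without replicate 1 at 16 weeks Myh6 differed by -0.13 and Ckm by -0.15, against -0.43 and -0.42 with it. In replicate 1 at 16 weeks the median over the cardiomyocyte list was -0.22, against -0.01 to 0.04 in the other HF arrays. The part of cardiomyocyte content in the values of that array was not tested.

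Atrial markers differed widely between arrays of both groups. Myl7, the atrial myosin light chain, had levels of 4.09, 6.91, 0.00 and 6.27 at 8 weeks and -0.57, 4.01, 1.17 and 1.04 at 16 weeks, and Myl4, another atrial light chain, of 0.23, 5.06, 0.70 and 2.33 and of 0.82, 3.12, 1.55 and 1.08. Both genes were high in replicate 2 of each group, and Myl7 also in replicates 1 and 4 at 8 weeks. The difference of -2.91 (SE 1.40, adjusted p = 0.662) in Myl7 was within its spread, and the part of atrial tissue in the difference of Kcna5 or Nppa was not tested. Of the 13 measured adipocyte, epicardial and atrial markers, 2 were higher past the threshold, Nppa and the epithelial keratin Krt19 (0.91, SE 0.31), and the median was -0.08. Fibroblast (16), smooth muscle and pericyte (13), erythrocyte (9) and skeletal muscle and nerve (12) markers had medians of 0.05, -0.12, -0.04 and -0.01, and no member passed the threshold. Within the higher array level the smooth muscle median was 0.06, and with arrays not centred the fibroblast median was -0.01.

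Endothelial genes had a median of -0.01 over 26 measured, with 3 higher and 1 lower past the threshold. Vwf, the von Willebrand factor stored by endothelium, had levels of 2.94, 3.36, 3.44 and 3.32 at 8 weeks and 4.58, 4.17, 4.14 and 4.08 at 16 weeks. The HF arrays lay close together and apart from the CH arrays, and the difference was 0.98 (SE 0.14, 1.97-fold, adjusted p = 0.154 by limma). Apln, the peptide apelin, had CH levels of 2.28 to 2.71 and HF levels of 0.49, 1.47, 2.37 and 2.00, a difference of -0.87 (SE 0.33). Vegfd, a lymphatic growth factor, and Edn1, the vasoconstrictor endothelin 1, differed by 0.76 (SE 0.33) and 0.61 (SE 0.26), each led by replicate 1 at 16 weeks with a level of 0.83 and 1.17. Without that array Apln, Vegfd and Edn1 differed by -0.51, 0.37 and 0.34, and the other probe set of Apln gave -0.41.

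Other lists held a few genes past the threshold, which 1.08% of all genes passed on the higher side and 0.408% on the lower. Mt2A, a metal-binding stress protein, had CH levels of 2.64 to 3.90 and HF levels of 6.09, 4.24, 3.93 and 3.70, a difference of 1.24 (SE 0.47) that was 0.71 without replicate 1 at 16 weeks. Hspb1, a small heat shock protein, differed by 0.61 (SE 0.21). Of 29 heat shock genes 25 had a difference above 0, with a median of 0.12, but 20 with a median of 0.06 where arrays were not centred. By array the list's median was 0.08, 0.22, 0.05 and 0.04 in replicates 1 to 4 at 16 weeks, against -0.11 to 0.10 in the CH arrays. Of 39 genes of chemokines and cytokines 3 were higher and none lower, and the median was 0.08. Among the 3 was Il33, an alarmin of stromal and endothelial cells, which differed by 0.68 (SE 0.18) without overlap. Of 32 genes of integrins, costameres and cytoskeleton 3 were higher, including Synm, an intermediate filament protein (0.60, SE 0.20), whose other 2 probe sets gave -0.09 and 0.09 and which differed by 0.39 without replicate 3 at 8 weeks. Dbp, a transcription factor under the clock, differed by -1.01 (SE 0.44), and its CH levels of 0.55, 3.17, 2.62 and 1.93 spread far more than its HF levels of 0.93 to 1.10. It differed by -1.52 without replicate 1 at 8 weeks and by -0.65 without replicate 2. The time of day of tissue collection is not given in the sources used here.

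The other groups place these levels. At control, 8, 16 and 24 weeks the mean level of Postn was 0.16, 2.46, 4.44 and 2.82, and that of Spp1 was 0.54, 1.16, 3.59 and 1.03. Tmem119 had means of -0.65, 0.01, 2.08 and 1.43, and Vwf of 2.93, 3.27, 4.24 and 4.12. On the lower side, Bdh1 had means of 3.02, 3.30, 2.31 and 2.74, and Timp4 of 2.69, 2.36, 1.62 and 2.63. The 24-week mean lay between those at 8 and 16 weeks in 11 of the 15 higher genes and 13 of the 15 lower genes. Because the genes were chosen for their difference between 8 and 16 weeks, and all 24-week arrays are at the lower array level, this is a description with no test. The 8-week mean was above the control mean in all 15 higher genes and below it in 13 of the 15 lower genes. The share over all genes was not counted for either statement. All control arrays are at the higher array level, so these counts too are a description with no test.

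**Figure D4:**
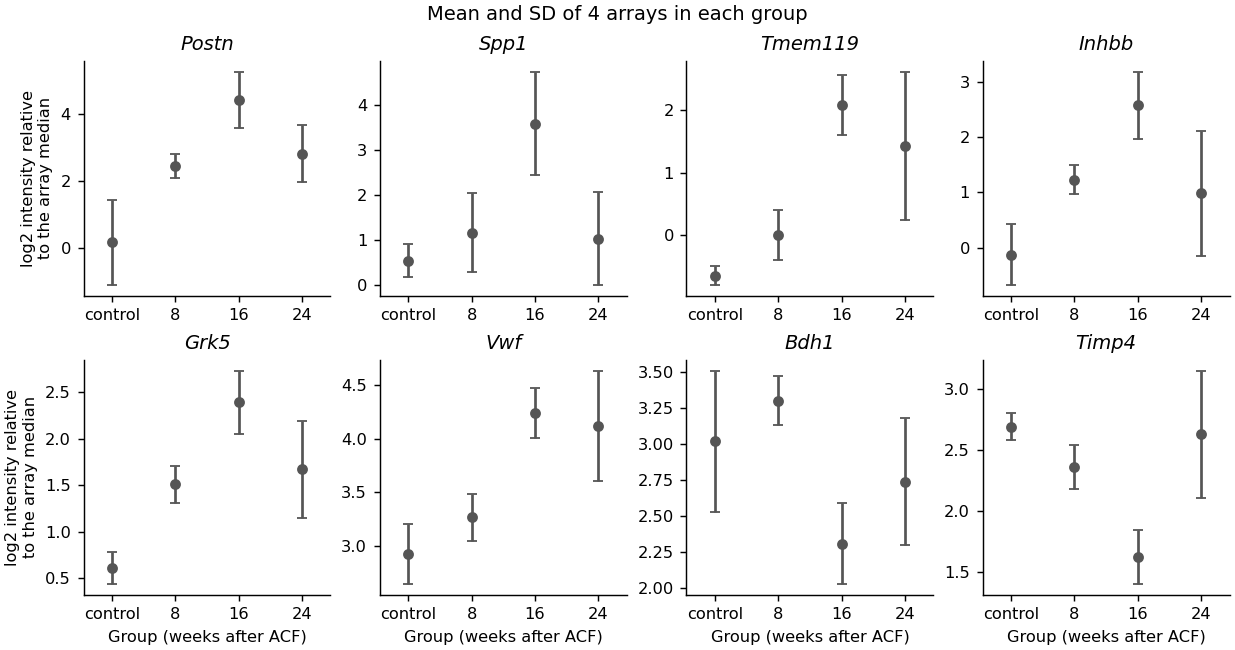
Mean level (log2 intensity relative to the array median, vertical axis) with its SD over 4 arrays for 8 genes in control rats and at 8, 16 and 24 weeks after ACF. Postn goes from 0.16 in control to 4.44 at 16 weeks and 2.82 at 24 weeks, while Vwf stays at 4.12 at 24 weeks.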

How the data were processed

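The authors ran RMA, which corrects background, applies quantile normalization and summarises the probes of a probe set, in Affymetrix Expression Console 1.2, per the labels, and deposited log2 intensity values. These cover 31099 probe sets and 16 arrays, and no scanner files were used here. The array whose probe sets are listed differs from the Affymetrix rat array in the study's methods. The 8 arrays at 8 and 16 weeks were each centred on their median over all probe sets. Of the probe sets, 20832 carry 1 gene symbol, 436 carry several and 9831 are unnamed here. Gene IDs of 20764 were found in the current gene table (GRCr8). Each gene was read from its brightest probe set by mean of the 16 arrays, giving 14218 genes, and dim probe sets were kept.

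Group means were compared with limma 3.58.1 (lmFit and eBayes) in R 4.3.3, without covariates, with a threshold of 0.05 on p after Benjamini-Hochberg adjustment across the 14218 genes. Single genes also had an exact two-sided permutation test over the 70 splits of 8 arrays. The 48 gene lists were described by counts and medians beside all genes, with no set test. The members and lists were chosen with earlier results of these data known. Named are the 15 largest differences in each direction among genes past the study's threshold whose groups do not overlap, without identifier-only names, and up to 5 members of each list with the smallest p. The script was tested on simulated data. Alternatives were the scale between arrays, all 16 arrays in 1 fit, the array level, the replicate number as a block, the variance prior, array weights, the methods' unpaired test, the upper 50% of genes by mean, the choice of probe sets and leaving out each array. Precision is limited by the number of arrays. Figures were drawn with matplotlib 3.10.9. SE is that of the model and SD the spread of 4 arrays.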

Additional observations from a re-analysis of the deposited data

Results flagged for a closer look

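Single arrays stood apart from the other 3 of their group in 15 of 230 groups tested for the genes named in the text, by the gap to the nearest array over the range of the group against Dixon's 95% critical value. Chance gives about 1 in 20 such groups. Of the 15, 5 were replicate 1 at 16 weeks, and the levels of that array were 0.36 for Crtac1 (other arrays -0.70 to -0.53), 1.98 for Nrep (3.09 to 3.15), 4.44 for Mrc1 (3.52 to 3.62), 6.77 for Slc16a1 (6.34 to 6.41) and 2.77 for Ppargc1a (3.13 to 3.15). At 16 weeks, replicate 2 stood at 2.53 for Efemp1 (2.86 to 2.90) and replicate 4 at 0.93 for Dbp (1.08 to 1.10).

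At 8 weeks, replicate 4 stood at 1.88 for Fstl3 (2.17 to 2.20), 4.51 for Prkaca (4.24 to 4.26) and 5.37 for Hspb1 (6.14 to 6.17). Replicate 2 stood at 4.12 for Mrps24 (4.36 to 4.38), 2.68 for Ppard (2.21 to 2.28) and -1.13 for Fam111a (5.18 to 5.71). Replicate 1 stood at 2.54 for Csf1r (2.67 to 2.70) and 0.46 for Mcm2 (0.67 to 0.70).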

How the results depend on the processing

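The count of genes at an adjusted p under 0.05 was 1 with uncentred arrays (Tmem119), 2 with the array level as a block (Grk5 and Postn), 0 with that block in a fit of all 16 arrays, chosen after seeing the data (lowest adjusted p 0.054), and 26 within the higher array level, where 3 CH arrays met 2 HF arrays. Those 26 were 17 higher and 9 lower genes, among them Postn, Fstl3, Inhbb, Tnc, Mmp12, Timp1 and Cacna1h on the higher side and Dhrs7c and Scn4b on the lower side. It was 0 with cyclic loess, all 16 arrays in 1 fit, the other variance prior, array weights, the methods' unpaired test, the upper 50% of genes, the mean of probe sets and all probe sets, and 0 to 1 when 1 array was left out. Leaving out replicate 2 at 16 weeks called Tmem119 and leaving out replicate 4 called Inhbb.

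By the study's threshold, 593 genes (360 higher, 233 lower) passed within the higher array level, 127 (93 and 34) with the methods' unpaired test and 120 (78 higher) among the upper 50% of genes. With the block in the fit of all 16 arrays 318 passed, 91 of them lower, and uncentred arrays gave 90 lower genes. Leaving out 1 array gave 161 to 337 in all, 120 to 236 higher and 37 to 101 lower, the extremes of the total coming without replicates 1 and 4 at 16 weeks. The cause of these shifts was not tested.

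The replicate numbers did not pair the arrays, since deviations of arrays with the same number correlated at 0.18, 0.03, -0.19 and -0.04. With the replicate block, 0 genes passed at an adjusted p and 221 by the study's threshold.

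The difference of Myl4 changed sign from -0.44 to 0.88 within the higher array level, 0.04 with array weights and 0.55 without replicate 2 at 8 weeks, and leaving out each array gave -1.06 to 0.55. Of 2269 recomputed differences of the named genes, 2247 kept their direction and side of the threshold, 19 kept direction and passed, and 3 reversed. Of 959 recomputed list medians, 909 moved by less than the spread between arrays. The replicate block, the other variance prior and the methods' unpaired test cannot change the difference of a gene. Direction and list medians were therefore fixed in these settings, as in the fit of all arrays without a block. No gene passed in the main comparison, so each began on the side that did not pass. These counts are thus no measure of robustness. Several list medians near 0 changed sign. Without centring 9 did, and the glucose, hexosamine, sarcomere, calcium, fibroblast, stress, storage and Wnt medians were -0.03, -0.03, -0.05, -0.05, -0.01, -0.05, -0.04 and -0.03, with the antioxidant median just below 0. Within the higher array level 8 did, among them smooth muscle (0.06), clock core (0.02) and renin-angiotensin (0.12), with the array level as a block 3, and with cyclic loess 2.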

Other observations

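Besides Tmem119, Vwf and Bdh1, the genes with the 8 lowest p values included 5 outside the naming rule, chosen here after their values were seen. Zdhhc9, a palmitoyl transferase, had levels of 2.03, 2.08, 2.21 and 2.08 at 8 weeks and 3.30, 2.89, 2.90 and 2.80 at 16 weeks, a difference of 0.88 (SE 0.12, adjusted p = 0.134 by limma). Rasgef1b, a nucleotide exchange factor, differed by 0.72 (SE 0.11), Adgra1, an adhesion receptor, by 0.76 (SE 0.12), and Ecm1, a secreted matrix protein, by 0.58 (SE 0.10), each without overlap. Prodh, the mitochondrial enzyme that begins proline breakdown, had levels of 2.34, 2.47, 2.23 and 2.53 at 8 weeks and 1.81, 1.71, 1.84 and 1.90 at 16 weeks, a difference of -0.58 (SE 0.10). The differences within the higher and the lower array level were -0.61 and -0.60 for Prodh and 0.53 and 0.59 for Ecm1. The other probe sets of Prodh and Rasgef1b gave 0.11 and 0.21.

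Genes of DNA replication were also measured. Of 38 cell cycle genes none passed the study's threshold, 28 had a difference above 0, and the median was 0.11. Mcm2, a subunit of the replicative helicase, differed by 0.36 (SE 0.10) without overlap.

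Fam111a took separate values over the arrays. Its levels were 5.42, -1.13, 5.71 and 5.18 at 8 weeks and -0.76, -1.69, 4.90 and 5.23 at 16 weeks, and it was chosen after its values were seen.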
